A study of Glycine max with 6 samples.

Results

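Chalcone synthase, the enzyme that opens the flavonoid pathway, was examined copy by copy in soybean leaves sprayed with a rhizobial signal. Members were the soybean probe sets whose every mapped gene in the platform's probe-to-gene table is CHS1, CHS6, CHS7 or CHS8. That rule gave 12 of the 37593 soybean probe sets on the array, 7 of them for CHS1 and 5 for CHS8. CHS6 and CHS7 have no probe set in the table, and 28546 soybean probe sets are paired there with no gene, so these copies are not analysed here. RefSeq's annotation of assembly Glycine_max_v4.0 lists 17 genes with a numbered CHS symbol, and 2 of them are paired with a probe set.

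The leaves came from Glycine max cultivar OAC Bayfield at the V1 stage, grown from surface-sterilised seed, with the first trifoliolate leaf sprayed with 2 mL and harvested 48 h later. Treated leaves received LCO at 1e-07 M, a lipo-chitooligosaccharide or Nod factor of Bradyrhizobium japonicum strain 532C, in sterilised water with 0.02% Tween 20. Control leaves received sterilised water with the same detergent, so both groups carry the detergent and the spraying. Each group has 3 arrays. Since no source used here says whether replicates were separate plants or pools, the p-values cover the spread among these 6 samples alone, and that spread may be technical.

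Chalcone synthase condenses coumaroyl-CoA, a product of the phenylpropanoid route, with malonyl-CoA into a chalcone. Chalcone reductase acts with it to direct the chain to the deoxy type from which legumes build daidzein and the glyceollin phytoalexins, and chalcone isomerase closes the ring for both types. Soybean holds a family of chalcone synthase copies, some of them in a tandem cluster whose small RNAs silence the pathway in yellow seed coats. CHS8 is a copy that has been tied to isoflavone content, under the MYB factor MYB176.

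In the annotation CHS1 stands between CHS3 and CHS9, with CHS5 next to CHS3, while the immediate neighbours of CHS8 carry only LOC numbers. Copies of this family are much alike in sequence. By the manufacturer's naming, a probe set ending in _s_at has probes shared by several transcripts and one ending in _x_at has probes that can bind other sequences. Signal of such probe sets may come from further copies, and this holds to an unknown degree for the others. A value is therefore given per probe set, and the gene name is the platform's assignment.

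The values are the authors' RMA values, taken as log2. A soybean probe set entered the test if it averaged more than a log2 value of 3.31 across the 6 arrays. That value, called the background level here, is the percentile 90 of the averages of 23394 probe sets for other organisms on the array. Of the 12 probe sets 9 were tested, 5 of CHS1 and 4 of CHS8. Changes are LCO minus water on the log2 scale, from limma fitted over all 29286 tested probe sets with Benjamini-Hochberg adjustment, and the threshold was an adjusted p of 0.05.

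CHS8 was lower with LCO in each of its 4 tested probe sets, by 1.97-fold to 3.27-fold. Of these 1 passed the threshold, where 3.55% of all tested probe sets passed in either direction. In none of the 4 did the groups overlap, and 16.3% of all tested probe sets were likewise lower without overlap. By their names the 4 belong to the same cluster of transcripts, so they do not count as separate observations. The treated arrays differed among themselves, and LCO 3 was the lowest array of all 6 in each CHS8 probe set.

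The CHS8 probe set that passed, Gma.4300.1.S1_at, read 5.66, 5.55 and 5.76 in water 1, 2 and 3, and 4.05, 4.54 and 3.25 in LCO 1, 2 and 3. The water arrays lay within a narrow band, and LCO 3 was under the background level while LCO 1 and LCO 2 were above it. The means were 5.66 ± 0.10 and 3.95 ± 0.65 (SD, n = 3 each), a change of -1.71 (SE 0.31, limma adjusted p = 0.0404).

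Gma.4300.1.S1_s_at, built on the same accession with shared probes, read 8.33, 8.08 and 7.73 in water and 6.81, 6.92 and 5.40 with LCO. All LCO arrays were below all water arrays, with LCO 3 lying 1.42 below LCO 1. Its change of -1.67 (SE 0.42, limma adjusted p = 0.0789) was about as large but did not pass.

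The remaining pair differ only in suffix. Gma.4300.3.S1_s_at read 8.13, 8.18 and 7.59 in water and 7.28, 7.20 and 5.81 with LCO, a change of -1.20 (SE 0.41, limma adjusted p = 0.139). Gma.4300.3.S1_x_at read 6.80, 6.91 and 6.30 in water and 6.25, 6.06 and 4.76 with LCO, a change of -0.98 (SE 0.40, limma adjusted p = 0.191). In this last probe set water 3 and LCO 1 nearly touched, at 6.30 and 6.25. LCO 3 weighed most here: without it the changes were -0.72 and -0.51, with an adjusted p of 0.157 and 0.253 by limma.

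**Figure D1:**
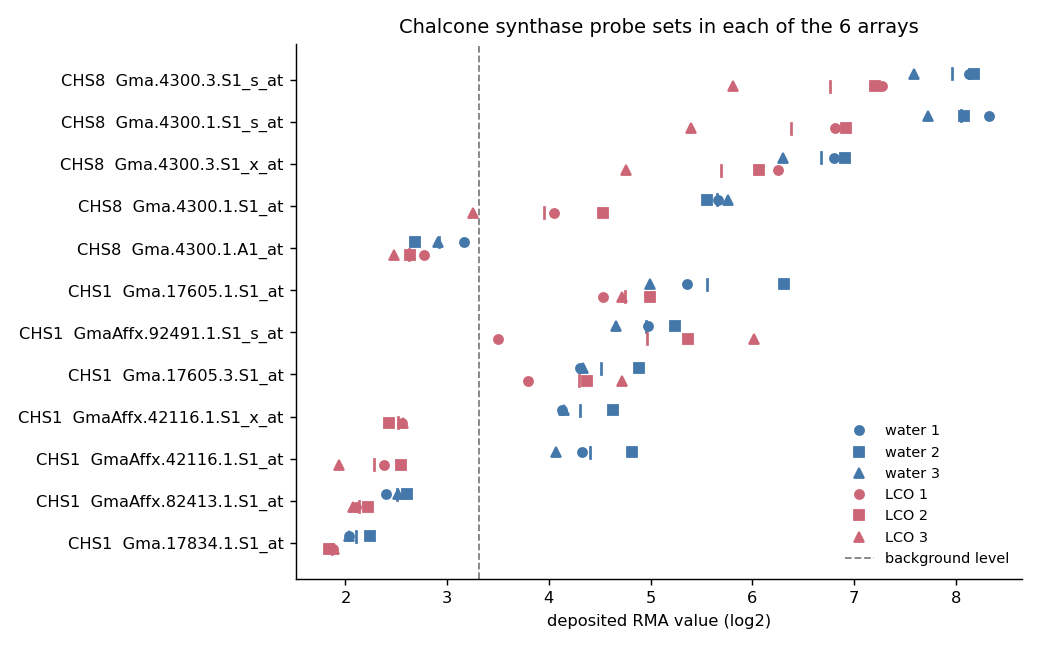
Deposited RMA values (log2, horizontal axis) of the 12 chalcone synthase probe sets, with 1 symbol per array, blue for water and red for LCO, short bars for group means (n = 3) and a dashed line at the background level of 3.31. In 4 of 5 CHS8 probe sets, those tested, every LCO array lay below every water array, as in 16.3% of all tested probe sets. The GmaAffx.42116 pair of CHS1 lay under the background level in all LCO arrays.

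Probe sets of CHS1 gave different readings. A pair of them, GmaAffx.42116.1.S1_at and its _x_at partner, fell with LCO to below the background level, while the other 3 tested probe sets did not pass and ranged from a change of -0.81 to 0.00.

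GmaAffx.42116.1.S1_at read 4.32, 4.82 and 4.07 in water and 2.38, 2.54 and 1.93 with LCO. Every water array was above the background level and every LCO array below it, so the fall is given as a bound, at least 2.13-fold (limma adjusted p = 0.0105). The measured means were 4.40 ± 0.38 and 2.28 ± 0.32.

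GmaAffx.42116.1.S1_x_at read 4.13, 4.63 and 4.15 in water and 2.55, 2.43 and 2.56 with LCO. It showed the same split around the background level and was at least 1.99-fold lower (limma adjusted p = 0.00402), with means of 4.30 ± 0.28 and 2.52 ± 0.07. These bounds set the mean of the water arrays against the background level. Both probe sets passed the filter on dim values through their water arrays alone, with means over the 6 arrays of 3.34 and 3.41. Of the 85 tested probe sets with every LCO array under the background level, 55.3% passed the threshold, so the pair is given as a description of what was seen.

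Gma.17605.1.S1_at, the CHS1 probe set with the highest mean, read 5.35, 6.32 and 5.00 in water and 4.53, 4.99 and 4.72 with LCO. Its groups were separated by only 0.00735, between water 3 and LCO 2, and water 2 stood above the rest. The change was -0.81 (SE 0.34, limma adjusted p = 0.193), with a 95% interval from -1.61 to 0.00. The change without water 2 was -0.43 (adjusted p = 0.351 by limma).

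Gma.17605.3.S1_at, from the same cluster of transcripts by its name, read 4.30, 4.89 and 4.34 in water and 3.797, 4.38 and 4.72 with LCO. These groups overlapped, and the change of -0.21 had a 95% interval from -0.86 to 0.44.

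GmaAffx.92491.1.S1_s_at, with shared probes, read 4.97, 5.24 and 4.66 in water and 3.50, 5.37 and 6.02 with LCO. The treated arrays spread to both sides of the water arrays, with LCO 1 lowest and LCO 3 highest of all 6. Its change was 0.00 (SE 0.61) with a 95% interval from -1.46 to 1.47, so these arrays leave its direction and size undetermined within that span. LCO 3, the lowest array in CHS8, was thus the highest in this probe set of CHS1.

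The 3 untested probe sets were under the background level in every array. GmaAffx.82413.1.S1_at of CHS1 ranged from 2.08 to 2.61, Gma.17834.1.S1_at of CHS1 from 1.84 to 2.24 and Gma.4300.1.A1_at of CHS8 from 2.47 to 3.16. In both CHS1 probe sets the LCO arrays were below the water arrays, by a mean of 0.37 and 0.23. No fold is given and nothing is read from the split, since both groups were under the background level. With no filter on dim values their limma adjusted p was 0.1004, 0.216 and, for the CHS8 probe set, 0.306.

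**Figure D2:**
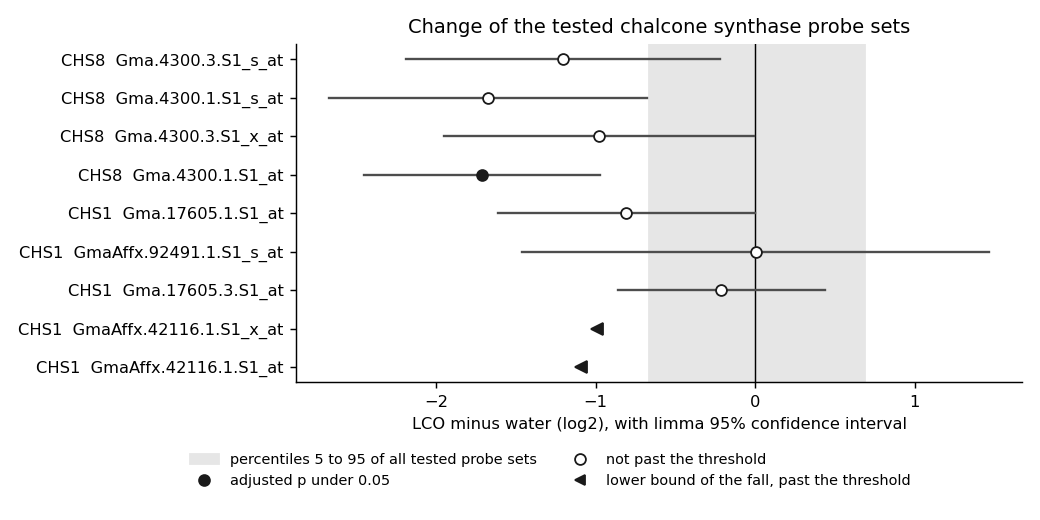
Change with LCO (log2, horizontal axis) of the 9 tested probe sets, with 95% confidence intervals from limma; filled points passed the threshold, triangles mark the GmaAffx.42116 pair at the lower bound of its fall, with no interval, and the grey band spans percentiles 5 to 95 of the change over all tested probe sets, from -0.67 to 0.69. Points of CHS8 and the GmaAffx.42116 pair lie left of the band, while Gma.17605.3.S1_at and GmaAffx.92491.1.S1_s_at lie inside it.

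Over the family, 3 of 9 tested probe sets fell, none rose and 6 did not pass, where 3.55% of all 29286 tested probe sets passed in either direction, 1.88% as lower and 1.67% as higher. Since the GmaAffx.42116 pair was tested only through its high water arrays, the share of the whole array is no measure for it. The same holds for a count over the 9 that includes the pair. Without the pair 1 of 7 fell, the CHS8 probe set Gma.4300.1.S1_at, where 3.3% of the 29106 probe sets above the background level in at least 1 array of each group passed. Of these 7, 5 passed at an unadjusted p under 0.05, against a background of 25.5%, and 5 had groups that did not overlap, all lower with LCO, against a background of 16.1%. With the pair, 7 of 9 did so on either measure, where 25.8% and 16.3% of all tested probe sets did. Nothing is concluded from that count of 9, since entry through high water arrays alone favours a low p and separated groups. Only the 7 without the pair can be set against such shares. The median change was -0.98 over the 7, and -0.99 over the 9 with the pair held at their bounds, beside a median of -0.01 over all tested probe sets. These probe sets share transcripts and 2 gene labels, and count neither as replicates nor as separate genes.

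Each gene was also read as the mean of its tested probe sets. CHS1 stood at 4.62, 5.18 and 4.44 in water and 3.35, 3.94 and 3.99 with LCO, and CHS8 at 7.23, 7.18 and 6.84 in water and 6.10, 6.18 and 4.80 with LCO. For CHS8 every LCO array lay below every water array, which held in 16.1% of all 27210 genes and unpaired probe sets, and the change was -1.39 (SE 0.37, limma adjusted p = 0.0912). For CHS1 the mean takes in the GmaAffx.42116 pair, and with it the change was -0.98 (SE 0.25, limma adjusted p = 0.0832). The 5 CHS1 changes averaged -0.62 with the pair held at their bounds. Without the pair CHS1 stood at 4.88, 5.48 and 4.66 in water and 3.94, 4.91 and 5.15 with LCO. Those groups overlapped, with a change of -0.34 (SE 0.36, 95% interval from -1.19 to 0.51, limma adjusted p = 0.582), an alternative chosen after seeing the data. Neither gene passed with or without the pair, where 3.5% of the 27210 did. In bulk leaf tissue, fewer cells that express a gene and less of its RNA per cell cannot be told apart.

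Whether copies or probe sets changed by different amounts was asked for 8 pairs, from the per-array difference within each pair. An exact permutation test of 3 arrays against 3 cannot go below 0.1, so no pair could pass. The change of Gma.4300.3.S1_s_at of CHS8 was 0.39 below that of Gma.17605.1.S1_at of CHS1 (exact two-sided permutation p = 0.6). Within CHS1, the GmaAffx.42116 pair allows only a bound: with its LCO arrays set to the background level, the differences from the change of Gma.17605.1.S1_at were -0.28 for GmaAffx.42116.1.S1_at and -0.18 for its _x_at partner, and the groups overlapped in both. The change of GmaAffx.92491.1.S1_s_at was 0.81 above that of Gma.17605.1.S1_at (exact permutation p = 0.3), with an SD of 1.17 between LCO arrays. Within CHS8 the differences from Gma.4300.3.S1_s_at were between -0.51 and 0.22. Their exact permutation p was 0.1 (adjusted p = 0.2 over the 8 pairs) for both partners with shared or cross-binding probes and 0.2 for Gma.4300.1.S1_at.

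**Figure D3:**
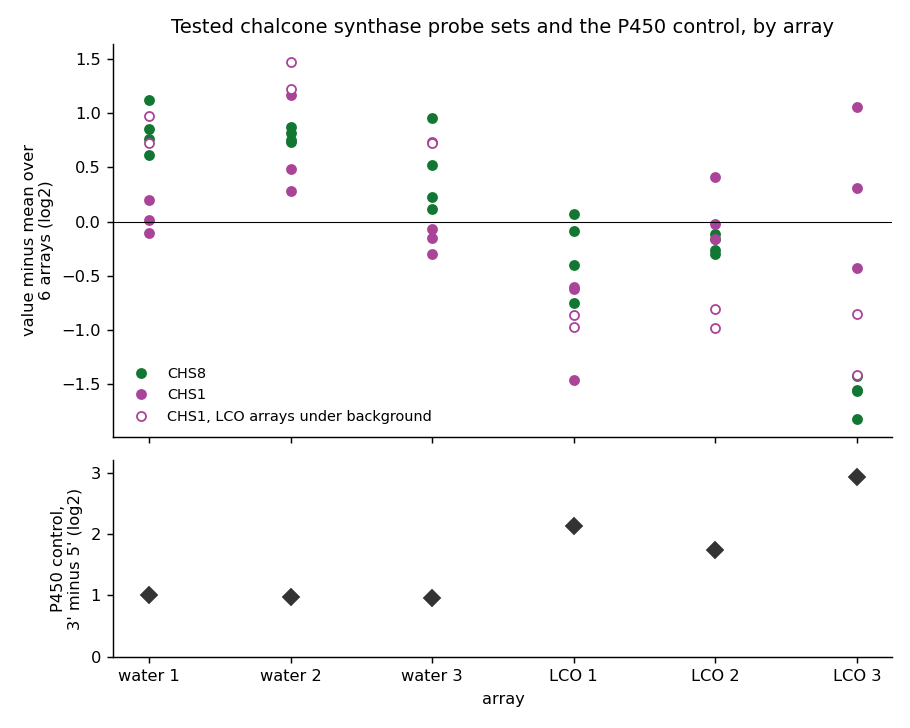
Upper panel: each tested probe set's value minus its own mean over the 6 arrays (log2), green for CHS8 and purple for CHS1, open where all LCO arrays were under the background level. Lower panel: P450 control, value of its 3′ probe set minus that of its 5′ probe set (log2). CHS8 and the P450 control both departed most from the water arrays in LCO 3, while the highest purple point of LCO 3 is GmaAffx.92491.1.S1_s_at.

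The arrays themselves differed in ways that moved with the groups. The array carries probe sets near both ends of a P450 transcript, whose 3′ minus 5′ difference is read as a sign of RNA integrity or labelling. It was 1.01, 0.97 and 0.95 in water and 2.13, 1.74 and 2.92 with LCO, so the array with the lowest CHS8 values also had the largest difference. The same measure overlapped between the groups for GlutTrans and for an actin. With LCO its mean was 0.21 higher for GlutTrans and 0.17 lower for the actin. The part of RNA quality in the chalcone synthase values was not tested. Probe sets of the poly-A spike-in transcripts, which labelling kits supply to be added to the RNA, averaged 6.21 ± 0.12 in water and 6.67 ± 0.05 with LCO, while hybridisation controls averaged 9.70 ± 0.08 and 9.80 ± 0.06.

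Scaling each array to those spike-ins, an alternative chosen after seeing the data, moved the median change of all tested probe sets from -0.01 to -0.46. It turned the split of calls from 490 higher and 550 lower to 432 higher and 14982 lower, and 7 of the 9 chalcone synthase probe sets then passed as lower. Scaling moves every probe set of an array by the same amount, so the family's changes relative to that shift could not differ. GmaAffx.92491.1.S1_s_at took a negative sign, at -0.45. Leaf identity was clear from CAB3, a chlorophyll-binding protein of the photosystems, with 3 of 4 tested probe sets between 13.60 and 14.39 on average and none past the threshold. The 3 sieve element probe sets read as vascular markers, SEOF and SEO-F3, had changes from 0.74 to 0.98 with none past the threshold, and their part in the chalcone synthase values was not tested.

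**Figure D4:**
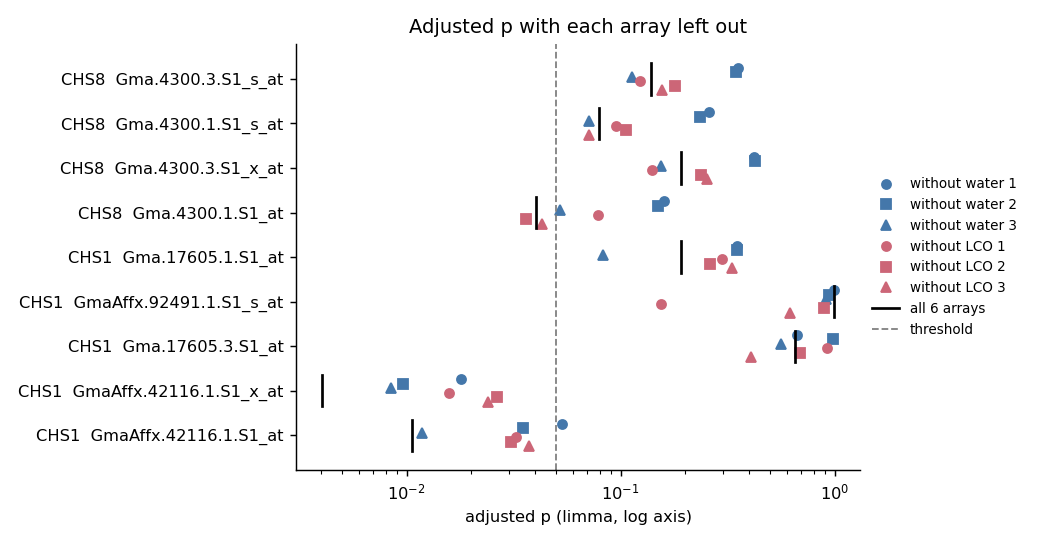
Adjusted p of the 9 tested probe sets (horizontal log axis) with each array left out, blue for a water array and red for an LCO array; black bars give the value with all 6 arrays and the dashed line the threshold of 0.05. Gma.4300.1.S1_at stayed left of the line in 2 of 6 fits; the GmaAffx.42116 pair, which entered the test through its water arrays alone, is drawn as a description.

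The CHS8 call, close to the threshold with all 6 arrays, was lost in most fits with fewer arrays. Leaving out an array also lowered the count over all tested probe sets, except without water 3. With 1 array left out, the call of Gma.4300.1.S1_at held in 2 of 6 fits, those without LCO 2 or LCO 3. It ended without water 1 (0.160), water 2 (0.149), water 3 (0.0523) or LCO 1 (0.0785), given as adjusted p, while its change stayed between -2.005 and -1.36. Apart from the GmaAffx.42116 pair, no other member passed in any of these fits. The pair's own calls do not count as stable, since the same filter admitted it to each fit: GmaAffx.42116.1.S1_x_at passed in 6 and GmaAffx.42116.1.S1_at in 5, missing without water 1 (adjusted p = 0.0535 by limma). The difference between water 1 and water 2 had the smallest SD of all array pairs, 0.198 over the tested probe sets, and with their values averaged the call of Gma.4300.1.S1_at ended too (adjusted p = 0.150 by limma). Direction was lower in every such fit for all 4 CHS8 probe sets, the GmaAffx.42116 pair and Gma.17605.1.S1_at, while Gma.17605.3.S1_at turned to 0.038 without LCO 1 and GmaAffx.92491.1.S1_s_at ranged from -0.52 to 0.74.

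Chalcone synthase was set beside other steps of its pathway, from lists chosen with earlier results of these data known. Upstream, none of 13 tested probe sets of phenylalanine ammonia-lyase (PAL2.1), cinnamate hydroxylase (C4H) and coumarate ligases passed. Of the 13, 6 had a lower estimate, where 51% of all tested probe sets did. At an unadjusted limma p under 0.05 there were 2 of 13, beside 25.8% of all tested probe sets. They were 4CL3 with a change of -0.46 and 4CL4 with 0.49, and the list's median was 0.03. At the enzymes next to chalcone synthase, 3 of 13 fell and none rose, where 1.88% of all tested probe sets fell and 1.67% rose. CHR1, a chalcone reductase, fell in both of its probe sets, with changes of -1.53 and -1.60. The reductases CHR4 (-0.30) and CHR5 (-1.22) did not pass. CHI1B1, a chalcone isomerase, fell in an _x_at probe set with a change of -0.61 (limma adjusted p = 0.0258). A probe set that CHI1B1 shares with CHI1B2 changed by -0.03. The other isomerase estimates ran from -0.57 for CHI1A to 0.72 for CHI3A1, with none past the threshold.

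Downstream, 8 of 19 tested probe sets of the isoflavone and pterocarpan branch fell and 1 rose, against the same 1.88% and 1.67%, with a median of -0.84. Of the 8, those of LOC100813225 and IFR had every LCO array under the background level and were tested through their water arrays alone. For both of them, and for a count that includes them, the share of the whole array is no measure. LOC100813225 and IFR are held at their bounds in that median. The other falls came from several probe sets of HIDH and from 1 each of IF7GT and CYP93A1, so they do not count as separate genes. Estimates were lower in 18 of the 19, again with LOC100813225 and IFR included. Of all tested probe sets 51% had a lower estimate. The 4 with the smallest p were those of LOC100813225, IFS1, HIDH and IFR. LOC100813225 (iomt2, an isoflavone O-methyltransferase) was at least 4.15-fold lower and IFR (an isoflavone reductase) at least 1.37-fold lower. IFS1 (an isoflavone synthase) had a log2 change of 2.09, and HIDH (the hydroxyisoflavanone dehydratase) one of -1.25. The IFS1 probe set has shared probes. IFS2, read by a brighter probe set with shared probes, had a log2 change of -1.09 (limma adjusted p = 0.170). In the flavonol and anthocyanin branch 1 of 6 fell, against the 1.88%, namely UGT78K1, an anthocyanidin glucosyltransferase, with a change of -0.98. Estimates of F3H and FLS1, the flavanone hydroxylase and flavonol synthase of that branch, were between 0.35 and 0.60 with none past the threshold. Among 8 tested probe sets of MYB factors named in soybean isoflavone studies none passed. MYB176 had a change of -0.38 (SE 0.21, limma adjusted p = 0.294), MYB29, near the background level, of -0.50 (adjusted p = 0.155) and MYB12A of 0.41 (adjusted p = 0.184). The spread of the chalcone synthase changes beside these lists is shown in the plot of the pathway.

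**Figure D5:**
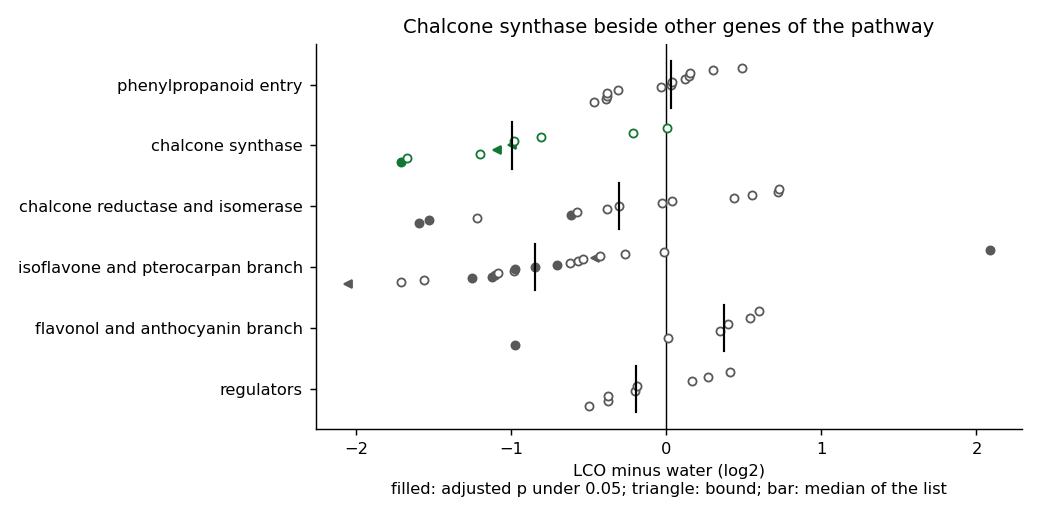
Change with LCO (log2, horizontal axis) of tested probe sets by pathway step, 1 point per probe set, filled where the adjusted p was under 0.05, triangles for lower bounds of a fall, and a bar at each list's median with bounds in place. The chalcone synthase symbols run from -1.71 to 0.00 and the phenylpropanoid entry points from -0.46 to 0.49; the 1 filled point on the right is IFS1.

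The pattern of the family over the arrays was taken as the mean of the 9 tested probe sets, each centred on its own mean. It was 0.57, 0.87 and 0.31 in water and -0.63, -0.27 and -0.85 with LCO. Among 281 probe sets with 1 gene outside the family, an informative symbol and an SD of at least 0.5 over the arrays, the 5 genes most like it were HIDH (Pearson r = 0.994), GRR1 (0.985), CYP93A1 (0.983), CHR1 (0.982) and BZIP95 (0.974), each over 6 arrays that share the split into water and LCO. HIDH and CHR1 act with chalcone synthase on the way to isoflavones, CYP93A1 is a hydroxylase of pterocarpan synthesis and BZIP95 a bZIP transcription factor. Of the 281, 37 had an r of at least 0.9, so such likeness is common among variable probe sets here. With the GmaAffx.42116 pair left out of the mean, r for the 5 genes was between 0.954 and 0.981. Members were like the mean of the other members to different degrees. For the CHS8 probe sets r was from 0.79 to 0.91. It was 0.83 for Gma.17605.1.S1_at, 0.30 for Gma.17605.3.S1_at and -0.11 for GmaAffx.92491.1.S1_s_at. Those means of other members take in the GmaAffx.42116 pair, and no r without it was computed for members. The pair itself had an r of 0.98 and 0.91, given as a description. Its entry through high water arrays alone favours such values, and each one's comparison mean holds its partner.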

How the data were processed

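Values were the authors' deposited log2 values, 1 per probe set and array, which per the submitters' processing notes came from RMA. The sources used here give no version or software for RMA and no scale, which was taken as log2 from the range of the values. Every column was used, grouped by title. The members, the pathway lists and the averaging of water 1 and 2 were chosen with earlier results of these data known.

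LCO was compared with water by limma 3.58.1 under R 4.3.3 (lmFit, eBayes, group as the only term, Benjamini-Hochberg over 29286 probe sets) and checked on simulated data. Symbols came from the platform table, updated through the Entrez identifier to RefSeq. Where every array of the dimmer group was under the background level, the fold is a lower bound. Pair differences used exact permutation tests in scipy 1.17.1. Named genes were all members, per list up to 4 probe sets past the threshold by smallest p (or 2 where none passed), and the 5 genes most like the family; other genes were chosen after their values were seen. The number of arrays limits the precision. Alternatives covered filter, normalization, prior, array weights, replicate block, averaging and each array left out. No promoter or protein sequence was used here.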

Additional observations from a re-analysis of the deposited data

How the results depend on the processing

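With 1 array left out, the count of all tested probe sets past the threshold ran from 193 (without water 2) to 2207 (without water 3) around 1040. That of chalcone synthase probe sets ran from 1 (without water 1) to 3, the count with all arrays. These counts, and those with array weights or the spike-ins below, take in the GmaAffx.42116 pair. Its entry through high water arrays alone favours a call. Apart from the pair only Gma.4300.1.S1_at passed with 1 array left out, in 2 of 6 fits. The chalcone synthase count was 1 with a stricter filter (percentile 99, which removed the GmaAffx.42116 pair), 6 with array weights and 0 with 1 mean per gene, also from only the probe sets above the background level in both groups (a choice made after seeing the data, with 844 passing in all). Over all probe sets the count was 9544 with array weights and 203 with water 1 and 2 averaged. Scaled to the poly-A spike-ins, a choice made after seeing the data, 15414 probe sets passed in all and 7 of chalcone synthase. The filter, quantile normalization, median centring and prior otherwise kept both counts within 1.5 times. Estimates changed sign for GmaAffx.92491.1.S1_s_at with median centring (-0.021), with the spike-ins (-0.45) and without water 3 (-0.15), LCO 2 (-0.20) or LCO 3 (-0.52), in a range up to 0.74 over the arrays left out, and for Gma.17605.3.S1_at without LCO 1 (0.038), in a range from -0.42. No cause was tested.

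Whether replicate numbers pair the arrays could not be decided from deviations from the group means. Those of same-numbered arrays correlated at 0.452, -0.036 and 0.527. Water 1 and water 3 correlated best with the LCO array of their own number, and water 2 with LCO 1 (0.448). Deviations within a group depend on each other, and water 1 and water 2 were the most alike of all array pairs. With the replicate block 3010 probe sets passed in all and 5 of the 9 chalcone synthase probe sets, Gma.4300.1.S1_s_at (adjusted p = 0.0263) and Gma.4300.3.S1_s_at (0.0359) being added.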
